A study of Mus musculus with 10 samples.

Results

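Shared promoters of protein-coding transcripts are the promoter windows that were open in every treatment group of this ATAC-seq series. A window of the untreated list was taken where the deposited annotation calls it the promoter and transcription start of a protein-coding transcript (an NM accession) and each of the 3 other lists holds a window on the same chromosome with a start within 62 bp. The rule uses annotation and position, not a fold change. It gave 5595 of the 26230 windows of the untreated list, all of 1 length, next to 5043 different genes. In all, 14722 windows of any annotation were found in the 4 lists, so 9127 shared windows lie outside these promoters and serve here for comparison.

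ATAC-seq marks open chromatin with a transposase that cuts accessible DNA, and the number of cut fragments (tags) in a window measures how open it is. The cells were MC3T3-E1, an established mouse line of osteoblasts, the cells that make bone. Each of 4 groups had 2 libraries: untreated cells, cells given TNFa (10 ng/ml), cells given BMP4 (10 ng/ml) and cells given both, and 2 libraries of sonicated MC3T3-E1 DNA were the authors' background. All groups, untreated cells included, were kept in serum-reduced medium before treatment. The treatment protocol adds TNFa 30 min before 3 h of BMP4, while the sample labels give 3 h for TNFa. The titles of the TNFa libraries, and of no others, carry p65, which the labels leave unexplained. Whether the 2 libraries of a group came from separate cultures is not stated, so each p-value sets a difference against a spread between libraries that may be technical only.

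Promoters of protein-coding genes carry a short stretch free of nucleosomes just upstream of the start, where general factors assemble. In mammals most of them are rich in CpG and open in many cell types, whereas treatment-specific openness is more often found at enhancers. TNFa, an inflammatory cytokine, releases NF-kB dimers (such as RelA with p50) from IkB inhibitors into the nucleus, and BMP4, a bone morphogenetic protein, acts through receptor kinases on SMAD1, SMAD5 and SMAD9, which induce the Id genes in osteoblasts. The design asks whether either factor, or both, changed openness at promoters.

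The sequences that go with the results are given first. Each is the 250 bases before the RefSeq start (GRCm38.p6, the coordinates of mm10), 5′ to 3′ on the gene's strand. Capitals mark letters of 16 motifs searched on both strands and spelled out where they are first used below. Nfkb2 encodes the NF-kB precursor p100 and is shown at both of its starts because each has a shared window. The first start (chr19:46304487-46304736, plus strand) has the palindromic kB letters GGGAATTCC from base -39 on, found on both strands with an overlap, a further kB match GGGNNTTTC from -11 and a CCAAT box from -81, where the base before the start is -1.
Nfkb2, first start: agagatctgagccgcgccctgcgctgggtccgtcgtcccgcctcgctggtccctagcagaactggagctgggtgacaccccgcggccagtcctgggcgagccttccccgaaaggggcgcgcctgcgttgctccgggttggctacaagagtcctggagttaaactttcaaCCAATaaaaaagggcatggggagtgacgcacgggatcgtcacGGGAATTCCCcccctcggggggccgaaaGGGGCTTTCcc
The second start (chr19:46305445-46305694, plus strand) has a kB match on the opposite strand from -182, AP-1 letters (TGANTCA, bound by FOS and JUN) from -210 and TEAD letters (GGAATG) from -236. All of these lie outside its shared window, which spans -77 to 47 bp.
Nfkb2, second start: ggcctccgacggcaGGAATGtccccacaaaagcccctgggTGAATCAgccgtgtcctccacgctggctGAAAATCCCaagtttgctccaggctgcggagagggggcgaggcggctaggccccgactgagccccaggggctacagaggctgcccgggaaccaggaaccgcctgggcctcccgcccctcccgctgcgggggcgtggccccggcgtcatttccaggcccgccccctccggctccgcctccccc
Next come 3 further promoters that were more open in every TNFa library: Fam129b, listed as Niban2 in RefSeq (chr2:32875884-32876133, plus strand), a protein linked to cell survival; Ccnl1, cyclin L1 (chr3:65958250-65958499, minus strand), with the CRE letters TGACGTCA that CREB and ATF proteins bind from -18; and Rassf1, a Ras-association protein (chr9:107551305-107551554, plus strand), with a reverse CCAAT box from -178. The Rassf1 match lies outside its shared window (-117 to 7 bp).
Fam129b: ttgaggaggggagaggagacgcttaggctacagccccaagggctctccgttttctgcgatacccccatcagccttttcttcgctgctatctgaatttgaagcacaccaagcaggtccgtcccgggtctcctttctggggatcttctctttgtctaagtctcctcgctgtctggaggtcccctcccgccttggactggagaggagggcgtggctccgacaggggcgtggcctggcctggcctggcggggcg
Ccnl1: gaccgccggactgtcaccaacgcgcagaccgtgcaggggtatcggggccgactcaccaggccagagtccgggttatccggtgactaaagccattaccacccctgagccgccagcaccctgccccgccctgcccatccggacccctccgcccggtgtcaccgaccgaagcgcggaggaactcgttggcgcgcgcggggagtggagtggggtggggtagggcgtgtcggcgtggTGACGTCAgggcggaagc
Rassf1: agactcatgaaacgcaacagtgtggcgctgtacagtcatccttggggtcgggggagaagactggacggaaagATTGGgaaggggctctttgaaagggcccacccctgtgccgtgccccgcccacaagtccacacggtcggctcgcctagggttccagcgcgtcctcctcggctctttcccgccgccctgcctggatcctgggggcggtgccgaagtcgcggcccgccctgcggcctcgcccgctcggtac
Of those more open in every BMP4 library, Id3 (chr4:136143572-136143821, plus strand), an inhibitor of helix-loop-helix factors, had only TEAD letters from -203 on the opposite strand, and Snai1 (chr2:167537945-167538194, plus strand), a zinc finger repressor of epithelial genes, had a reverse CCAAT box from -84. The Id3 letters lie outside its shared window (-181 to -57 bp). No SMAD letters of the kinds searched (GGCGCC and GTCTAGAC) stand in the window of either gene.
Id3: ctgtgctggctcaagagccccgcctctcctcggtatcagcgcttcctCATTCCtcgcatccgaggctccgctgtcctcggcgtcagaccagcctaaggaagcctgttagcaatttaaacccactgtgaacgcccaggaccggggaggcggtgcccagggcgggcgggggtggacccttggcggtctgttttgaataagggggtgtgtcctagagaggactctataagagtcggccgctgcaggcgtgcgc
Snai1: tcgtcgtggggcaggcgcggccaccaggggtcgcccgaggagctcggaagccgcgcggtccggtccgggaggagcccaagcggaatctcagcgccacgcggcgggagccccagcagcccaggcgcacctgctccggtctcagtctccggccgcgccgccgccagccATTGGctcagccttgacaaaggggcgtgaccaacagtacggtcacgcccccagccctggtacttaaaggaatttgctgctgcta
Lrig2, a membrane protein with leucine-rich repeats (chr3:104511919-104512168, minus strand), had one of the steadiest windows and carries an SP/KLF box GGGGCGGGG from -97 with CCAAT letters from -60 and, reversed, from -26.
Lrig2: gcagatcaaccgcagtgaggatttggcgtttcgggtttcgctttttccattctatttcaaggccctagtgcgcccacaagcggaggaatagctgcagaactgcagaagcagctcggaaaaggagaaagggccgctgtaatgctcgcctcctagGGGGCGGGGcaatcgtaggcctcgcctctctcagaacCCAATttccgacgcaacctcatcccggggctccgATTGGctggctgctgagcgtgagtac

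Promoters were kept across the lists more often than other windows. Of the 7820 protein-coding promoters in the untreated list, 71.5% were found in every list, against 49.6% of the windows of other annotations. Windows with higher counts were shared more often in both sets, and in each of 5 ranks of the untreated count the promoters had the higher share. In the lowest rank, 35.5% of promoters and 22.5% of other windows were shared. In the highest rank the shares were 87% and 79%. This is a description of lists called separately per group, with no test. Of the shared promoters, 1315 had an identical start in all lists and the median of the largest shift was 6 bp. At the threshold, 79 promoters had a largest shift of 59 to 62 bp and were taken, while 78 with a shift of 63 to 66 bp were not. A further 1797 promoters had no window within 200 bp in at least 1 list.

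The windows sat just upstream of the start. The centre lay at a median of -63 bp (quartiles -135 and -12 bp), 80.0% were upstream, and 62.9% were within 100 bp. Of the genes, 4531 had 1 window, 477 had 2 and 35 had 3 or more. For 590 windows the annotated transcript belongs to another gene than the nearest one named in the file, as at starts that face each other. In the RefSeq promoter table used below, starts of protein-coding genes on both strands lay within 500 bp of 566 windows. For 1262 windows that table holds no start within 500 bp, so 566 may be too few.

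The label of the cells could be checked only in part at these promoters. Runx2, Col1a1 and Col1a2 of 10 osteoblast markers had a shared promoter, and 9 of 10 had a window of some kind in the untreated list, all but Alpl. Chondrocyte and adipocyte markers had 1 shared promoter each of 4, Sox9 and Cebpa. None of 5 haematopoietic, 6 muscle and endothelial, or 6 neuronal and epithelial markers had a promoter window in the untreated list, shared or not. Longer marker lists, which are among the gene lists read further below, differed in part. On these, 1 of 12 haematopoietic genes (Runx1), 2 of 12 chondrocyte genes and 1 of 9 adipocyte genes had a shared promoter. None of 12 muscle and endothelial or 10 neuronal and epithelial genes did. Windows of any annotation stood in the untreated list at 3 of 4 chondrocyte, 3 of 4 adipocyte, 1 of 5 haematopoietic, 2 of 6 muscle and endothelial, and 4 of 6 neuronal and epithelial markers. What these windows mean for the makeup of the cells was not tested.

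RefSeq promoter sequence (250 bases before to 50 after the start) was matched to 3701 of the 5595 windows by an overlap of at least 63 bp, each with a promoter of its own (66.1%, so sequence statements cover these only), and 17536 protein-coding promoters of the table had no such match. The matched promoters were richer in GC, with a median of 62% (quartiles 57% and 67.7%) against 54.7% (46.7% and 63.3%). Their ratio of observed to expected CpG had a median of 0.822 against 0.447, and 85.8% against 39.5% were above 0.6. Among the matched windows, levels differed with GC. Those with 37.3% to 55.7% GC had a median level of 39.8 CPM, those with 64.3% to 68.7% had 66.5 CPM, and those above had 62.1 CPM. CPM is the usual scaled count unit, here relative to the tags in shared windows, and since the windows are of 1 length, levels can be compared between genes. GC content also affects amplification and sequencing, and its part in these levels was not tested.

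Motif letters differed in both directions between matched and other promoters, with no clean split between general and regulated factors. CCAAT boxes, bound by NF-Y, stood in 47.5% of matched and 36.2% of other promoters (38.2% of all). SP/KLF boxes stood in 25.9% and 13.1% (15.4% of all), and ETS letters CCGGAAG in 22.2% and 9.33% (11.6% of all). NRF1 letters GCGCATGCG were found in 4.84% and 1.82% (2.35% of all), YY1 letters AAGATGGCG in 3.81% and 1.41% (1.83% of all) and CRE in 4.54% and 1.75% (2.24% of all). The GC-rich SMAD letters GGCGCC stood in 23.6% and 13.6% (15.3% of all). The kB letters GGGNNTTTC, by contrast, were at 4.08% and 4.30% (4.26% of all), and AP-1 at 4.38% and 7.54% (6.99% of all). RUNX letters TGTGGT were at 11.1% and 15.8% (15% of all), TEAD at 11.4% and 14.0% (13.6% of all) and the TATA box TATAAA at 5.70% and 14.1% (12.6% of all). The matched set is richer in GC, which by itself changes how often GC-rich or AT-rich letters turn up, and a match is a description of letters, not a bound site.

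**Figure D1:**
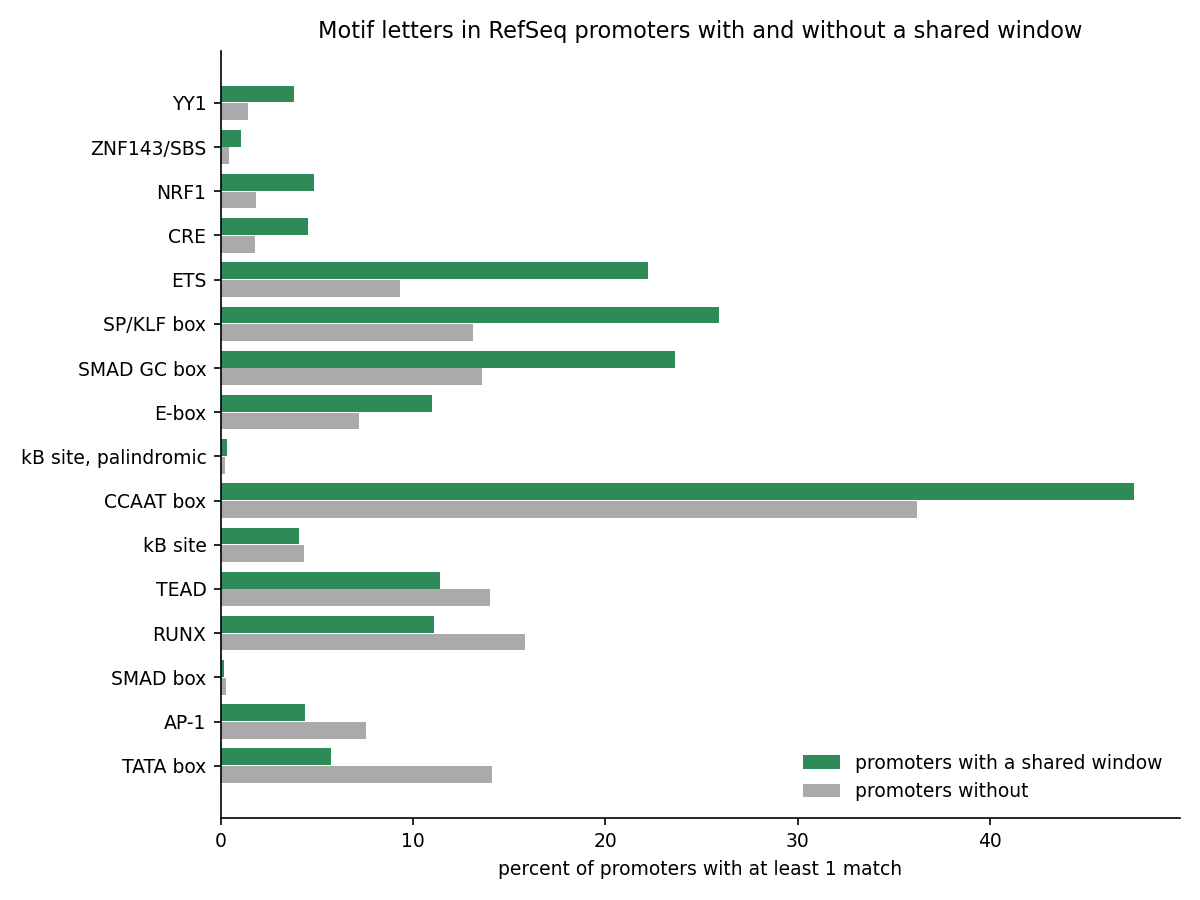
Horizontal bars give the percent of RefSeq promoters holding at least 1 match of each motif, ordered by the ratio of the bars. Green bars are the 3701 promoters matched to a shared window by an overlap of at least 63 bp, and grey bars the 17536 without such a match. Letters such as ETS (22.2% against 9.33%) and CRE (4.54% against 1.75%) stand above and the TATA box (5.70% against 14.1%) stands at the bottom.

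Promoter windows held more tags than other shared windows in every library, while their rate over background was lower. The median count per shared promoter ran from 30.0 to 82 over the 8 libraries, and the median level from 49.7 to 53.7 CPM, against 36.6 to 39.6 CPM in the other shared windows. Levels averaged over the 8 libraries spanned 7.71 to 957 CPM, with 5% of promoters below 20.1 and 5% above 209 CPM. Tags in shared promoters made up 1.55% to 2.48% of a library's total tags, 13.6 to 21.7 times the rate in the background libraries. All shared windows were called over that background in each group, so an excess over it was set in advance. For the other shared windows that ratio was 15.2 to 24.6, above that of the promoters in each of the 8 libraries. In the authors' deposited table the log2 fold over background had a median of 3.72 at these windows for untreated cells. It was 3.58 under TNFa, 3.82 under BMP4 and 3.61 under both. The medians of the other shared windows were higher, at 4.01, 3.77, 4.16 and 3.81 in that order.

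The 10 highest windows belonged to 8 nearest genes. Mob3a, a MOB family adaptor whose window is annotated to the facing gene Izumo4, led with 1051 and 575 CPM untreated, 1241 and 821 with TNFa, 1221 and 530 under BMP4, and 1261 and 959 with both. Lims1, the focal adhesion adaptor PINCH, followed in the same range with 757 and 672 CPM untreated, 918 and 820 with TNFa, 568 and 532 under BMP4, and 702 and 751 with both. Both windows of Khsrp, an RNA-binding protein that promotes mRNA decay, and both of Rnf5, a ubiquitin ligase of the endoplasmic reticulum, were among the 10, as were windows of G3bp1, Gamt, Rras and Izumo4. At the low end stood Trmt12, Pcdhga3, Mrps30, Atrx and Eri1, each between 1.68 and 15.6 CPM in every library.

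Some promoters hardly varied. Among those with a mean count of at least 50, Actb, the cytoskeletal actin often used as a reference, had the smallest spread (SD of log2 values 0.09 over 8 libraries). Its levels were 99.1 and 105 CPM untreated, 104 and 119 with TNFa, 102 and 98.6 under BMP4, and 106 and 111 with both. Crebl2, Lrig2, Ptpn14, Ccdc85b and Amacr came next, at 0.11 to 0.12. The largest spreads, 1.92 to 2.13, were at Zfp40, Zfp51, Zfp983, Gm10509, Mtf1 and Fh1. Zfp40, a zinc finger gene, had 70.6 and 3.6 CPM untreated, 116 and 5.91 with TNFa, 154 and 4.37 under BMP4, and 156 and 59.3 with both. Replicate 2 was the lower library of every group there, though at 59.3 CPM where both factors were given it stood far above the other 3 libraries numbered 2. All 6 of these windows lay between -493 and -393 bp.

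That pattern went beyond 6 windows and bears on every comparison. Across the shared promoters, Pearson's r of the log2 levels between the 2 libraries of a group was 0.53 for the untreated pair, 0.63 for the TNFa pair, 0.39 for BMP4 and 0.71 where both were given (n = 5595 windows, across windows of the same libraries). Libraries of different groups came closer: untreated 2 and BMP4 2 had 0.96, BMP4 1 and TNFa+BMP4 1 had 0.96, and untreated 1 and TNFa+BMP4 2 had 0.95. The SD of the log2 difference between replicates was 1.14, 1.01, 1.38 and 0.91 in the order above, and 26.4% to 47.9% of promoters differed over 2-fold between replicates. In the other shared windows the corresponding SDs were 1.09, 1.03, 1.48 and 0.88.

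Position relative to the start went with it. In the 1157 windows centred over -250 to -100 bp, untreated 2 and BMP4 2 were above the mean of the 8 libraries by a median log2 of 0.36 and 0.45, and the other 6 libraries lay between -0.15 and 0.02. In the 446 windows over -500 to -250 bp the same 2 libraries were at -0.43 and -0.47, with the others between 0.08 and 0.27. In the 324 windows farthest upstream they were at -0.46 and -0.50, BMP4 1 and TNFa+BMP4 1 were at 0.54 and 0.55, and TNFa 1 was at 0.34, while TNFa 2 was at -0.27. Near the start (-50 to 0 bp, 1314 windows) all libraries were within -0.11 and 0.22. The labels put all libraries in 1 batch, and what sets untreated 2 and BMP4 2 apart was not tested. Whether libraries were exchanged between groups was not tested either and the labels do not settle it, so every comparison with the untreated or the BMP4 group carries that limit.

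**Figure D2:**
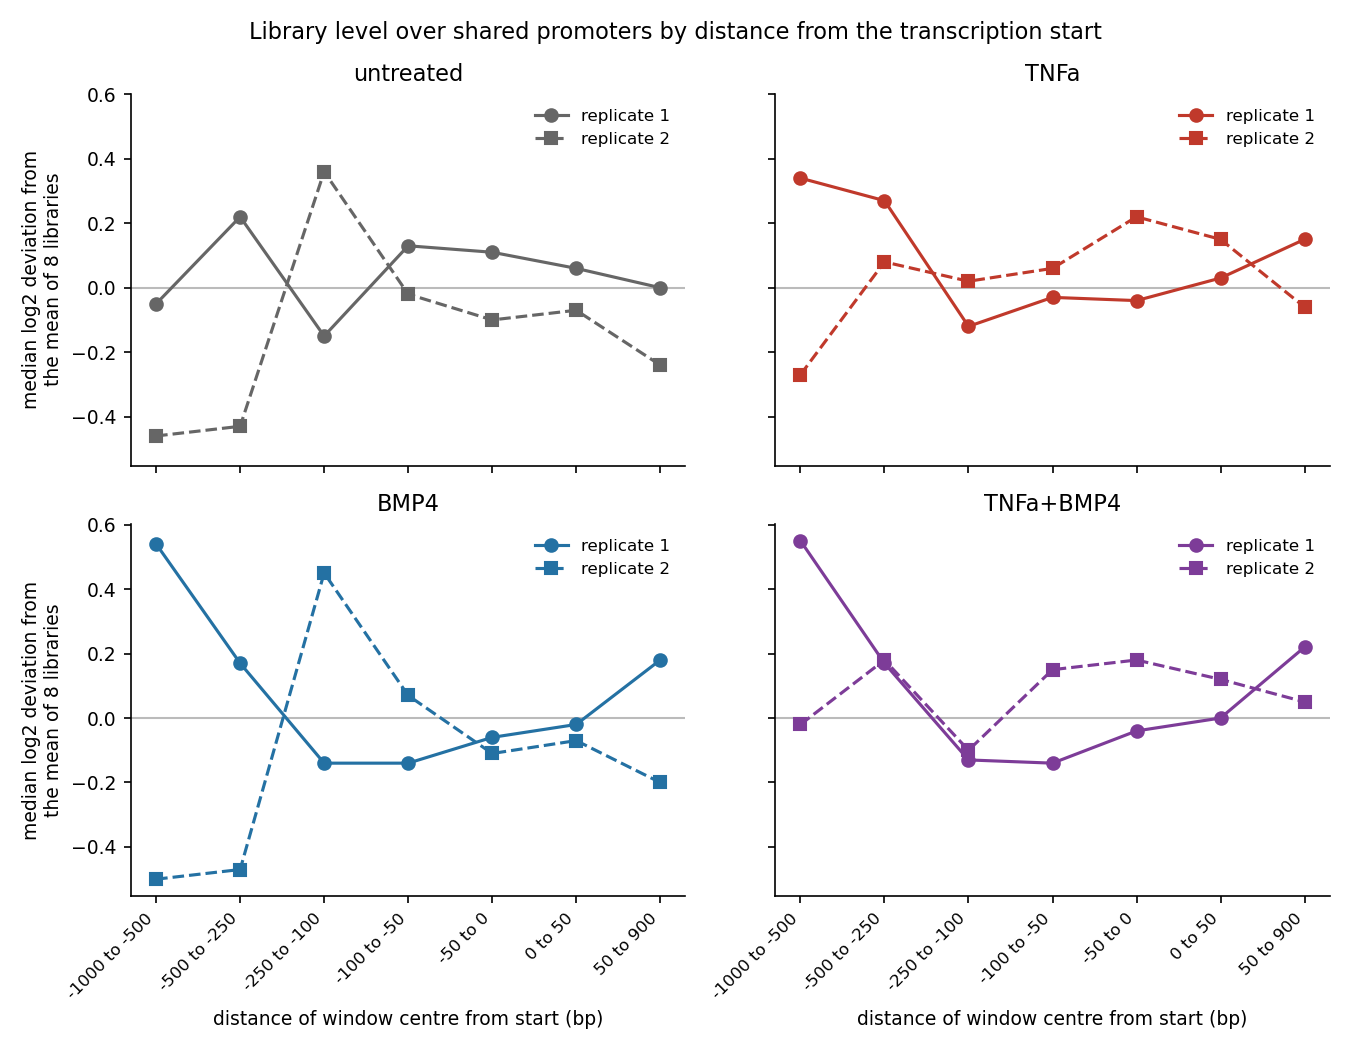
Each panel is a treatment group, with the distance of the window centre from the start in 7 bins (bp) on the x axis and, on the y axis, the median over windows of the library's log2 level minus the mean of the 8 libraries. Replicate 2 of untreated and of BMP4 (squares, dashed) share a peak at -250 to -100 bp (0.36 and 0.45) and lie below 0 farther upstream, where TNFa 2 also lies below 0 in the farthest bin (-0.27).

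Treatment estimates also differed by position, and both of those libraries are without TNFa. The median log2 fold change for TNFa (the mean of TNFa against untreated and of both factors against BMP4, here called the TNFa main effect) was -0.22 over -250 to -100 bp and 0.28 over -500 to -250 bp. With untreated 2 and BMP4 2 left out, a choice made after seeing the data, these medians were 0.04 and -0.01. For BMP4, whose 2 sides hold 1 of these libraries each, the medians in the same bins were -0.01 and -0.04. In the 324 windows farthest upstream, however, the median was 0.20 for BMP4 and 0.46 for both factors against untreated. For TNFa the median in this farthest bin was 0.21 with all libraries and -0.14 without untreated 2 and BMP4 2. TNFa medians in these upstream bins thus changed when those 2 libraries were left out, and the cause was not tested.

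Promoters as a class took a slightly larger share of tags in the TNFa libraries, without passing the test. The share of all shared-window tags that fell in shared promoters was 44% and 43% untreated and 44.3% and 45.1% under TNFa. It was 43.4% and 43.3% under BMP4 and 43.7% and 45.4% under both. With TNFa the mean was 44.6% ± 0.76 (SD, n = 4) and without it 43.4% ± 0.45 (SD, n = 4), a difference of 1.22 percentage points (exact permutation test, two-sided, p = 0.0571, where 0.0286 is the smallest possible). For BMP4 the means were 43.9% ± 0.99 with and 44.1% ± 0.88 without (SD, n = 4 each, exact permutation p = 0.771). Between single groups of 2 libraries no exact p can go below 0.333. The TNFa difference was 0.94 points without untreated 2 and BMP4 2. Without 1 library each it ran from 0.97 to 1.53 points.

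With group as the only term of the fit, no single shared promoter passed an adjusted p of 0.05 in any comparison. This holds for each factor and both against untreated, both against each single factor, the 2 main effects and their interaction (limma over 14712 tested windows, Benjamini-Hochberg). All 5595 promoters passed the filter on low counts. Nor did any other window pass, so the background is 0 of 14712 (0%). The smallest adjusted p of a shared promoter was 0.856 for the TNFa main effect, 0.897 for both against untreated and 1.00 for the BMP4 main effect. The median standard error of a main effect was 0.45 on the log2 scale.

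At an unadjusted p under 0.05, 40 shared promoters differed for TNFa (30 higher, 10 lower), or 0.715%, beside 4.38% of all windows tested. In the other shared windows the share was 6.64%, 605 of 9117. The count was 436 without untreated 1, 11 without untreated 2, 19 without TNFa 1, 684 without BMP4 1, 22 without BMP4 2, 18 without TNFa+BMP4 2 and 12 without untreated 2 and BMP4 2 together. For BMP4, 27 shared promoters (18 higher, 9 lower) did so, or 0.483%, beside 1.11% of all windows. That count was 13 without untreated 1, 68 without TNFa 1, 9 without TNFa 2, 11 without BMP4 1, 313 without BMP4 2, 5 without TNFa+BMP4 1 and 121 without TNFa+BMP4 2, and 133 without untreated 2 and BMP4 2 together. The counts move with single libraries. For the interaction the count was 0, in shared promoters and in all windows. With all libraries in the fit, these shares of shared promoters lie below the 5% that windows without any difference would give at this threshold. The low counts are therefore no evidence that promoters did not respond. Why they fall below that share was not tested.

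Fold changes of promoters also spanned a narrower range. For TNFa the SD over shared promoters was 0.506 against 0.623 in the other shared windows, and 277 of 5595 against 975 of 9117 windows had an estimate over 2-fold. For BMP4 the SDs were 0.415 and 0.467, with 2.07% and 3.65% over 2-fold. The medians were 0.03 for TNFa and -0.01 for BMP4, beside -0.01 over all windows in both. With libraries scaled by their total tags, the TNFa median over all windows moved to -0.15 and that of shared promoters to -0.11. Changes below are relative to the scaling over shared windows. Of shared promoters, 1.23% had TNFa and no-TNFa libraries that did not overlap (42 higher, 27 lower), beside 4.43% of all windows, and for BMP4 0.733% (23 higher, 18 lower) beside 1.64%. With 2 libraries against 2, the share without overlap was 12.7% for TNFa against untreated (19.6% of all windows), 16.8% for BMP4 (17.1%) and 24.1% for both (33.3%).

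**Figure D3:**
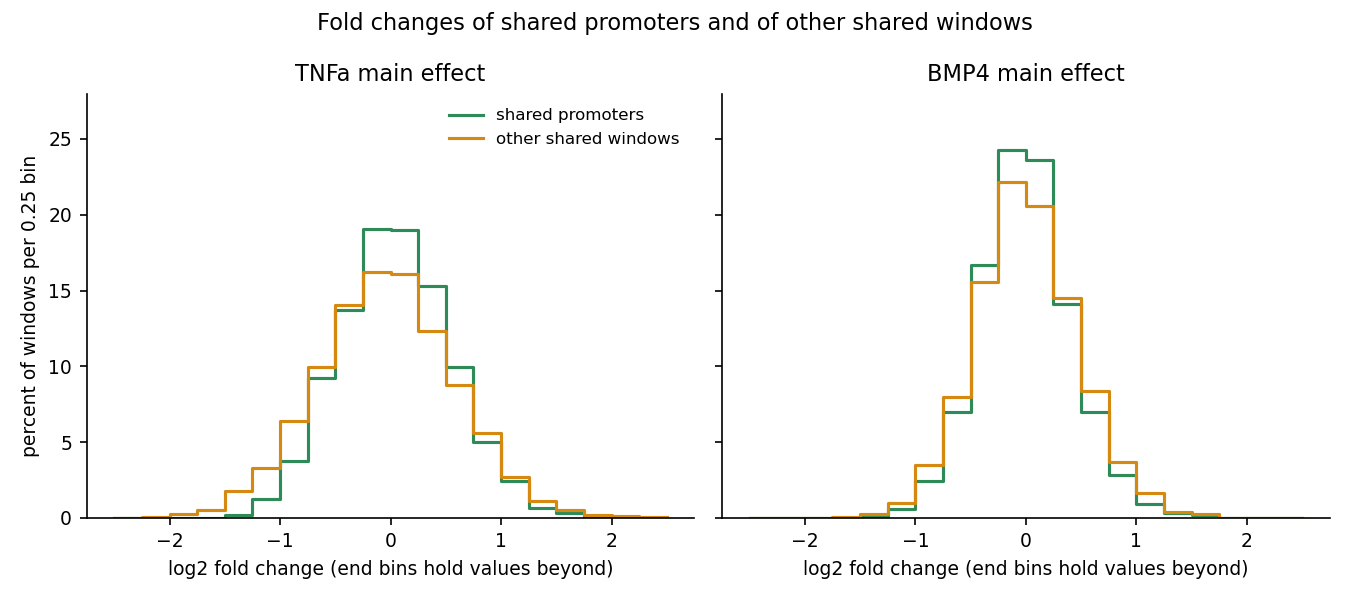
Steps give the percent of windows in each 0.25-wide bin of log2 fold change for 5595 shared promoters (green) and 9117 other shared windows (orange), for the TNFa main effect (left) and the BMP4 main effect (right). The green curves are narrower, with SDs of 0.506 against 0.623 and of 0.415 against 0.467.

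The promoters named from here on are those with the smallest unadjusted p whose groups do not overlap, so they head a list in which nothing passed the adjusted test. For TNFa the first was Fam129b (chr2:32876048-32876172, centre at -24 bp). It had 39.5 and 31.7 CPM untreated, 40.1 and 27.5 with BMP4, 130 and 118 with TNFa, and 136 and 120 with both. All 4 libraries with TNFa stood about as high as each other and well clear of the rest, with or without BMP4 (log2 fold change 1.82 ± 0.36 SE, adjusted p = 0.856, limma). Under the 19 alternatives run on it the estimate stayed between 1.61 and 1.94.

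Mt2 encodes a metallothionein that binds zinc and copper. Its window at -877 bp (chr8:94171679-94171803) had 49.6 and 54.8 CPM untreated, 35.6 and 47.4 with BMP4, 148 and 164 with TNFa, and 129 and 144 with both. The log2 fold change was 1.61 ± 0.35 SE (adjusted p = 0.856, limma), and no TNFa library overlapped the rest. A second Mt2 window at 18 bp, over the start itself, overlapped between groups. It had 30.2 and 73.5 CPM untreated, 39.0 and 59.9 with BMP4, 75.8 and 128 with TNFa, and 71.3 and 49.3 with both (log2 fold change 0.65 ± 0.44 SE). Untreated 2 and BMP4 2 were above their partners there, and this window was not estimated without them.

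Nfkb2 also had different TNFa estimates at its 2 starts. The window at its second start (chr19:46305618-46305742, centre -15 bp) had 93.2 and 18 CPM untreated, 105 and 21.9 with BMP4, 211 and 115 with TNFa, and 192 and 169 with both. TNFa libraries were the higher ones, but untreated 2 and BMP4 2 were far below their partners. The log2 fold change of 1.85 ± 0.65 SE (adjusted p = 0.856, limma) was 0.75 without those 2 libraries. At the first start (chr19:46304514-46304638, centre -161 bp), whose sequence above holds the kB palindrome outside the window, levels were 155 and 287 CPM untreated, 96.8 and 257 with BMP4, 251 and 387 with TNFa, and 159 and 174 with both. Here the groups overlapped, and the estimate was 0.32 ± 0.42 SE. Untreated 2 and BMP4 2 were the higher libraries of their groups at this start, as over -250 to -100 bp in general. No estimate was made at this start without them, so whether the starts differ apart from those libraries was not tested.

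Dlg4, the scaffold protein PSD-95, had 3 shared windows. At -228 bp the levels were 218 and 141 CPM untreated, 144 and 157 with BMP4, 436 and 346 with TNFa, and 312 and 414 with both. That window had a log2 fold change of 1.19 ± 0.32 SE, and those at -504 and -890 bp had 1.66 ± 0.57 and 1.14 ± 0.66. Ccnl1, a cyclin of transcription and splicing kinases, had 99.1 and 70.6 CPM untreated, 63.4 and 83.7 with BMP4, 211 and 171 with TNFa, and 155 and 162 with both. Its estimate was 1.13 ± 0.35 SE, and 1.11 without untreated 2 and BMP4 2.

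The other 3 promoters named on the higher side were Acyp1, an acylphosphatase (1.77 ± 0.45 SE), Rassf1 (1.45 ± 0.50) and Fxyd5, a regulator of the sodium pump (1.30 ± 0.43). Without untreated 2 and BMP4 2 these were 1.46, 0.72 and 0.78. Acyp1 had a second shared window, at 110 bp, where the estimate was -0.48 ± 0.41 SE. Fxyd5, named at 183 bp, had a second one at 1 bp with 1.82 ± 0.69.

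On the lower side Panx3 came first. It encodes a pannexin channel that osteoblasts and chondrocytes make. Its window (chr9:37669344-37669468, centre -184 bp) had 58 and 102 CPM untreated, 52.3 and 114 with BMP4, 16.8 and 24.8 with TNFa, and 20.6 and 16.8 with both. The TNFa libraries did not overlap the rest (log2 fold change -1.88 ± 0.42 SE, adjusted p = 0.856, limma), and without untreated 2 and BMP4 2 the value was -1.39. Untreated 2 and BMP4 2 were the highest libraries, as they were over that stretch in general. Cant1, a calcium-activated nucleotidase, had 124 and 223 CPM untreated, 140 and 235 with BMP4, 77.5 and 55.5 with TNFa, and 85.0 and 76.1 with both (-1.24 ± 0.39 SE). The others were Klk14, a secreted protease (-1.44), Slc39a14, a zinc importer (-1.45), Snx10, a sorting nexin (-0.95), Capg, an actin-capping protein (-1.14), Rnf122, a ubiquitin ligase (-0.92), and Nid2, the basement membrane protein nidogen-2 (-0.79). For Klk14, Slc39a14 and Capg the values without untreated 2 and BMP4 2 were -0.72, -0.67 and -0.63. Of the genes on this side, 3 had a second shared window, and none of these was as low. Snx10 was at 0.43 ± 0.35 SE at 39 bp (named at -83 bp), Capg at -0.09 ± 0.57 at -119 bp (named at -817 bp) and Cant1 at -0.31 ± 0.38 at 66 bp (named at -489 bp).

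**Figure D4:**
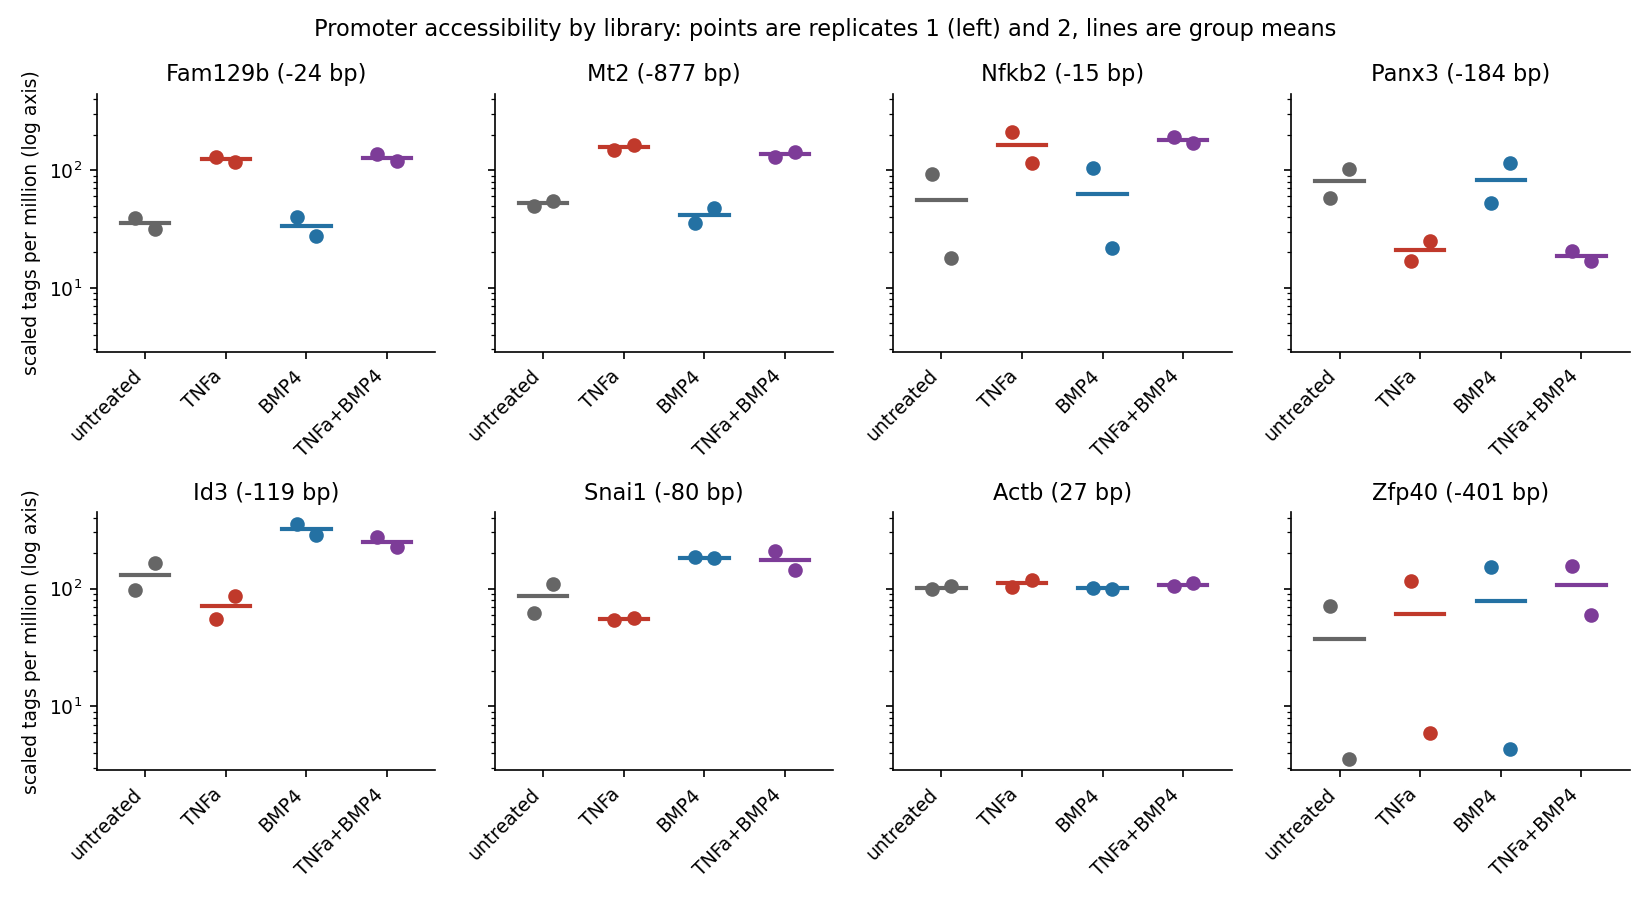
Points are the 2 libraries of each group (replicate 1 left) and lines their mean, in CPM on a log axis, for 8 shared promoters with the distance of the window centre from the start. TNFa libraries stand apart at Fam129b, Mt2, Nfkb2 and Panx3 and BMP4 libraries at Id3 and Snai1. Actb is level, and at Zfp40 replicate 2 is the lower library of every group.

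For BMP4 the leading promoter was Id3. Its window (chr4:136143641-136143765, centre -119 bp) had 96.6 and 164 CPM untreated, 55.6 and 86.2 with TNFa, 356 and 283 under BMP4, and 274 and 228 with both. The 4 libraries with BMP4 were above the 4 without, at 286 ± 52.9 against 101 ± 45.9 CPM (SD, n = 4 each). The log2 fold change was 1.57 ± 0.36 SE (adjusted p = 1.00, limma) and ranged from 1.40 to 1.85 over 20 alternatives. Snai1 (chr2:167538053-167538177, centre -80 bp) had 62.2 and 110 CPM untreated, 53.9 and 56.7 with TNFa, 185 and 181 under BMP4, and 208 and 143 with both. Its estimate was 1.37 ± 0.37 SE (adjusted p = 1.00, limma), and the 2 sides did not overlap.

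Further promoters named as higher with BMP4 were Spr, sepiapterin reductase (1.46 ± 0.44 SE), Dyrk2, a protein kinase (1.46 ± 0.44), Bivm (1.42 ± 0.53), Pwwp2b (1.36 ± 0.48), Arrb1, beta-arrestin 1 (1.00 ± 0.41), and Wdr38 (0.95 ± 0.35). Dyrk2, Pwwp2b and Wdr38 were named at -945, -784 and -826 bp, in the farthest upstream bin, where the BMP4 median was 0.20. In Spr the libraries given BMP4 had 181 and 85.5 CPM alone and 174 and 88.4 with TNFa, so replicate 1 was about as high in both. Named as lower were Rassf2, a Ras-association protein (-1.04 ± 0.37 SE), Zfp94 (-1.0 ± 0.40), B9d2, a protein of the ciliary base (-1.0 ± 0.45), Zc3h12b (-0.86 ± 0.36), Mrgprf (-0.81 ± 0.37), Sertad4 (-0.77 ± 0.35), Ube2v1 (-0.72 ± 0.43) and Ndufb4, a subunit of respiratory complex I (-0.69 ± 0.39). Rassf2 had 110 and 81.5 CPM untreated, 84.2 and 94.5 with TNFa, 39 and 48.1 under BMP4, and 34.3 and 57.1 with both. Every BMP4 library was below every other one.

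Untreated cells were also set against cells that had both factors, and each of the 3 comparisons with untreated uses the same 2 untreated libraries. At an unadjusted p under 0.05, 17 shared promoters differed for both factors (0.304%, beside 2.52% of all windows), 8 for TNFa alone (0.143%, beside 1.02%) and 8 for BMP4 alone (0.143%, beside 0.197%). Both factors against TNFa gave 6 (0.107%, beside 0.279%) and both against BMP4 gave 16 (0.286%, beside 1.62%). Timp1, an inhibitor of matrix metalloproteinases, had 12.6 and 8.65 CPM untreated, 21.9 and 17.7 with TNFa, 18.9 and 9.99 under BMP4, and 35.6 and 36.9 with both. Its log2 fold change for both was 1.62 ± 0.51 SE, beside 0.80 ± 0.51 for TNFa alone and 0.35 ± 0.51 for BMP4 alone (adjusted p = 0.897, 1.00 and 1.00, limma). The Timp1 window lies at -686 bp, in the farthest upstream bin, where the median for both against untreated was 0.46. Ifi204, an interferon-inducible gene, was at 1.71 ± 0.63 SE for both. Zfp423, a SMAD-binding zinc finger protein, was at -1.81 ± 0.65 SE, with 239 and 430 CPM untreated and 67.2 and 121 with both. Cmbl (-1.57 ± 0.59 SE) and Dynlt1b (-1.51 ± 0.67) were the other promoters named here. Dynlt1b was at -0.72 without untreated 2 and at -0.71 without untreated 2 and BMP4 2. Cmbl was at -0.94 without TNFa+BMP4 2 and at -2.18 without TNFa+BMP4 1.

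The interaction asks whether the effect of one factor depends on the other. Its estimates have a median SE of 0.91, and no window of any kind reached an unadjusted p of 0.05. Kif18a, a mitotic kinesin, had the smallest p among promoters, with 11.8 and 10.8 CPM untreated, 18.5 and 10.6 with TNFa, 44.5 and 21.2 under BMP4, and 12.3 and 13.4 with both (-1.42 ± 0.76 SE). Cetn3, a centrin, was at -1.46 ± 0.81 SE and Cp, ceruloplasmin, at 1.39 ± 0.81. For promoters as a class the interaction had an SD of 0.433, against 0.434 in the other shared windows.

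Gene lists were read by counts, without a test of the list. Of 27 genes of NF-kB subunits and regulators, 13 had a shared promoter, with 16 windows, of which 7 had a positive TNFa estimate (median -0.04, beside -0.01 over all windows) and 2 had an unadjusted p under 0.05. Those were Nfkb2 at its second start and Nfkbie, the inhibitor IkB epsilon. Nfkbie had 50.4 and 29.6 CPM untreated, 37.8 and 27.5 with BMP4, 80.8 and 72.1 with TNFa, and 57.6 and 87.3 with both (1.02 ± 0.38 SE, adjusted p = 0.856, limma), with no overlap. Nfkbiz, the atypical nuclear inhibitor, had 2 windows at 1.66 ± 0.93 and 0.96 ± 0.58 SE. Both were low in untreated 2 (4.33 and 38.2 CPM) and in BMP4 2 (3.75 and 41.2 CPM) against 22.7 and 155 CPM in untreated 1. Rela, the p65 subunit, had 53.8 and 72.8 CPM untreated, 25.3 and 96.9 with TNFa, 31.2 and 53.1 under BMP4, and 31.5 and 81.7 with both, an estimate of 0.00 ± 0.54 SE. Rel, Birc2, Traf2, Ripk1, Map3k7, Tnip2, Cyld and Ikbkg were between -0.60 and 0.36, as was Nfkbib. Without untreated 2 and BMP4 2, 13 of the 16 windows were positive and the median was 0.28. Leaving out either one gave 12 positive and a median of 0.22.

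Inflammatory genes that NF-kB is known to induce had few shared promoters, 7 genes of 28 with 9 windows. Their TNFa estimates were positive in 8 of 9 (median 0.52, and 0.37 with scaling by total tags, where all windows were at -0.15), and none had an unadjusted p under 0.05. Tap1, a peptide transporter of antigen presentation, had 101 and 90.8 CPM untreated, 67.9 and 66.2 with BMP4, 148 and 144 with TNFa, and 101 and 158 with both at -81 bp. That is 0.75 ± 0.35 SE, and the window at 188 bp, annotated to the facing Psmb9, was at 1.09 ± 0.49. Il6, the cytokine interleukin 6, had 54.6 and 15.1 CPM untreated, 71.2 and 18.1 with BMP4, 97.7 and 47.2 with TNFa, and 85.0 and 77.3 with both (1.14 ± 0.58 SE). The 2 windows of Irf1, an interferon regulatory factor, were at 1.15 ± 0.60 and 0.52 ± 0.47 SE. Gadd45b, Ptgs2 and Ccl2 were between 0.30 and 0.44, and Sod2, the mitochondrial superoxide dismutase, was at -0.04. Interferon response genes, which share the Tap1 windows, had 8 of 11 windows positive with a median of 0.52.

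BMP targets and antagonists had 7 shared promoters of 22 genes, 6 with a positive BMP4 estimate (median 0.49, beside -0.01 over all windows). The median was 0.21 without TNFa+BMP4 1, with 5 positive, 0.32 without TNFa 2 and at most 0.73 with any 1 library left out (BMP4 1). Besides Id3, Id1 had an unadjusted p under 0.05. Id1, a partner gene of Id3, had 33.6 and 28.8 CPM untreated, 16.8 and 34.3 with TNFa, 45.6 and 78.7 under BMP4, and 35.6 and 81.7 with both (1.00 ± 0.44 SE, adjusted p = 1.00, limma). Hes1, a Notch and BMP target, was at 0.70 ± 0.53 SE, Id2 at 0.49 ± 0.50, Dlx5 at 0.30 ± 0.35 and Tnfrsf11b, which encodes osteoprotegerin, at 0.27 ± 0.45. Id4 was at -0.83 ± 0.56 SE, with BMP4 1 and TNFa+BMP4 1 the low libraries (27.8 and 30.2 CPM). TNFa estimates of the same 7 windows were all below 0 (median -0.35), 6 of 7 without untreated 2 and BMP4 2 (median -0.12).

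A further list holds receptors, SMADs and some regulators that are neither, such as Skil. Of its 13 windows, at 12 of 20 genes, 5 had a positive BMP4 estimate (median -0.25). That median depended on single libraries, with 0.06 (7 positive) without BMP4 1, -0.01 without untreated 2, -0.05 without TNFa+BMP4 1, -0.12 without TNFa 2 and -0.38 without BMP4 2. Smad6, an inhibitory SMAD that BMP signalling induces, had 26 and 65.6 CPM untreated, 26.9 and 37.8 with TNFa, 65.7 and 140 under BMP4, and 67.2 and 51.5 with both at its start (1.01 ± 0.45 SE). At -940 bp the same gene had 68.0 and 85.1 CPM untreated, 69.1 and 36.6 with TNFa, 15.6 and 117 under BMP4, and 20.6 and 81.7 with both (-0.52 ± 0.68 SE). Smad7, also inhibitory, was at 0.56 ± 0.41 SE. Tob1, Zeb2, Smad2 and Skil were between -0.80 and 0.44. The effectors Smad5 and Smad4 were at -0.29 ± 0.52 and -0.22 ± 0.35, and the receptor genes Bmpr2 and Acvr2a at 0.08 ± 0.37 and 0.14 ± 0.37.

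Bone genes had list medians near 0. Osteoblast transcription factors had 6 of 14 genes with 7 windows, and no window with an unadjusted p under 0.05 for TNFa (2 positive, median -0.10) or BMP4 (4 positive, median 0.09). The BMP4 median was -0.07 without TNFa 2 and -0.09 without TNFa+BMP4 1. Runx2, the master regulator of the lineage, had 119 and 102 CPM untreated, 120 and 126 with TNFa, 92.4 and 102 under BMP4, and 61.7 and 121 with both. Atf4 had a TNFa estimate of -0.10, Twist1 had -0.31 and 0.54 at its 2 windows, and Sox4 was at 0.01. Matrix and membrane genes had 6 of 22, and again none passed at that level (TNFa median 0.08, BMP4 median -0.02). Col1a1, the main collagen chain of bone, had 50.4 and 93.0 CPM untreated, 50.5 and 62.6 with TNFa, 66.8 and 98 under BMP4, and 63 and 56 with both. Lox, which cross-links collagen, had 53.8 and 60.6 CPM untreated, 57.3 and 67.3 with TNFa, 86.8 and 86.2 under BMP4, and 101 and 70.5 with both. Its 4 BMP4 libraries were above the others (0.51 ± 0.35 SE).

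Cell death genes did not separate either. The 12 windows of 10 inhibitors (of 16) had a median TNFa estimate of -0.11 with 5 positive, and the 11 windows of 9 effectors (of 25) had -0.01 with 5 positive, and none had an unadjusted p under 0.05 for either factor. Hspa5, the chaperone of the endoplasmic reticulum, had 73.1 and 269 CPM untreated, 82.5 and 92.1 with TNFa, 93.5 and 295 under BMP4, and 110 and 90.7 with both. Untreated 2 and BMP4 2 were its high libraries (TNFa estimate -0.70 ± 0.54 SE). Among the other inhibitors, Mcl1, a BCL2 family protector, was at -0.60 ± 0.69 SE and Bcl2l1, which encodes BCL-XL, at 0.49 ± 0.45 and 0.30 ± 0.40. Birc5, or survivin, was at 0.48 ± 0.57 and -0.06 ± 0.46, and Xiap at 0.16 ± 0.36. Among effectors, Bcl2l11, or BIM, was at -0.59 ± 0.39 and -0.01 ± 0.58, Casp8 at 0.11 ± 0.41 and Fadd at 0.26 ± 0.52.

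**Figure D5:**
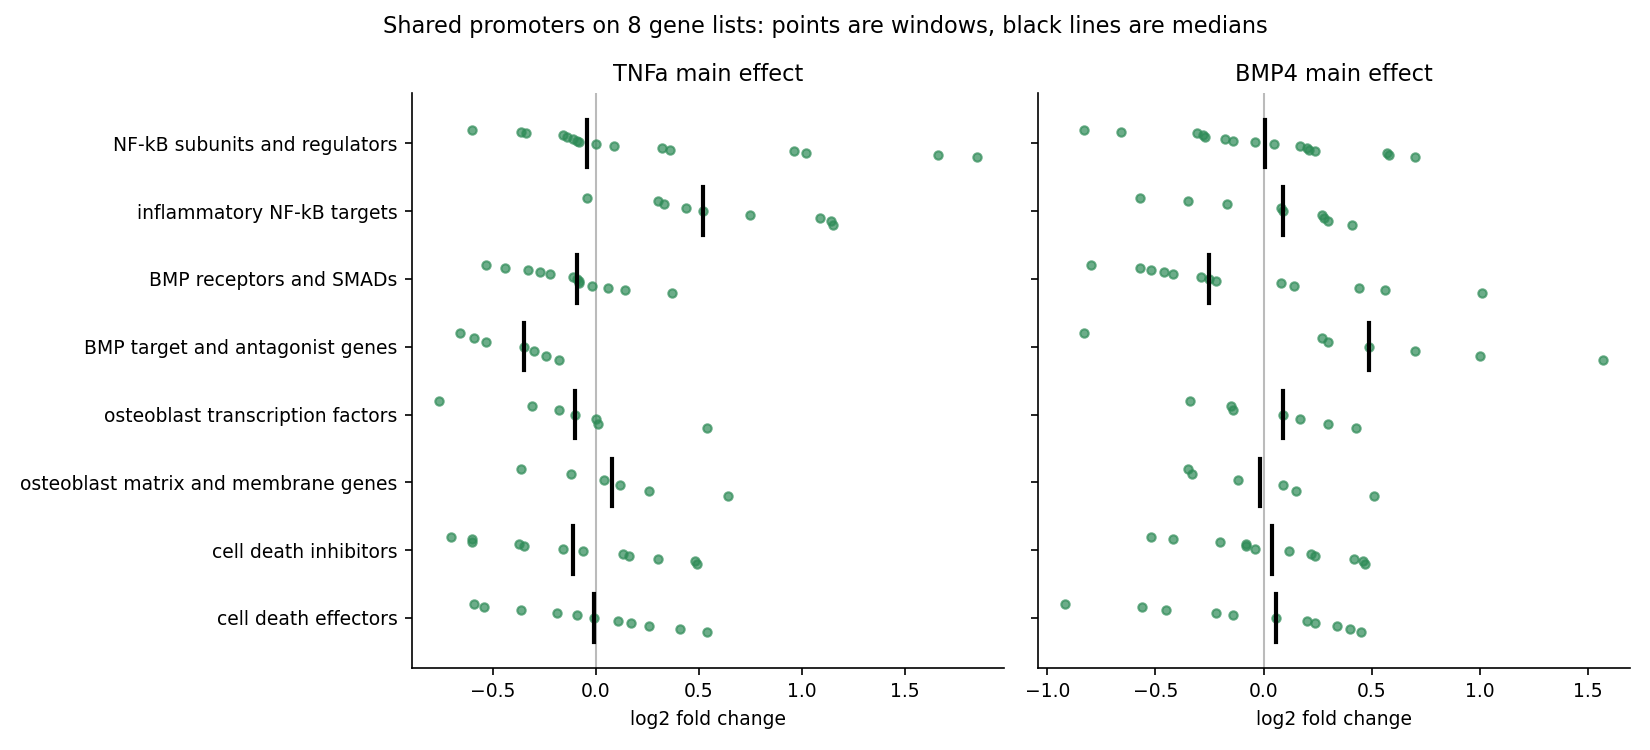
Each point is a shared promoter window on 1 of 8 gene lists, with its log2 fold change on the x axis for TNFa (left) and BMP4 (right), and black lines are list medians. The inflammatory targets lie mostly to the right for TNFa (median 0.52) and the BMP targets for BMP4 (median 0.49), while the other medians lie between -0.35 and 0.09.

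Housekeeping and other broad lists gave medians near 0. For TNFa the median was 0.01 over 13 housekeeping windows, 0.17 over 57 of cytosolic ribosomal proteins, 0.02 over 28 of mitochondrial ribosomal proteins, 0.17 over 21 of proteasome subunits, 0.03 over 45 of the respiratory chain, 0.11 over 163 of Zfp zinc finger genes and -0.16 over 36 of replication-dependent histones. Core transcription machinery was at 0.23 over 23 windows, with 19 positive. Egr1, an immediate early gene, had 298 and 92.3 CPM untreated, 327 and 283 with TNFa, 151 and 88.0 under BMP4, and 217 and 359 with both (1.06 ± 0.45 SE, adjusted p = 0.856, limma), the one of 18 windows on its list at that level. Rps27a, a ubiquitin and ribosomal fusion gene, was the one of the 57 ribosomal windows (1.01 ± 0.44 SE). Over the 27 lists, medians for BMP4 lay between -0.28 for aminoacyl-tRNA synthetases (17 windows) and 0.52 for haematopoietic markers, a list with 1 window (Runx1). Both muscle and endothelial and neuronal and epithelial lists had no shared promoter.

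Windows of 1 gene did not always move together. In 435 pairs of shared windows of 1 gene within 1000 bp of each other (median distance 431 bp), the TNFa estimates had the same sign in 303 pairs and r = 0.24 across pairs, and the BMP4 estimates in 322 pairs with r = 0.40. Windows of a pair share libraries, and their different distances from the start share the pattern described above, so these values are descriptions. Promoters with starts on both strands were more open (median 65.8 CPM against 56.1 CPM with a start on 1 strand), and their median TNFa estimate was 0.12 against 0.01. The 1262 windows with no start within 500 bp in the promoter table used here had medians of 55.3 CPM and 0.07. That table lacks some annotated starts, so the split by strand is incomplete.

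Treatment medians were also read by motif. Shared promoters with the kB letters GGGNNTTTC had a median TNFa estimate of 0.03 (151 windows) and those without -0.01. The 11 with the palindrome GGGAATTCC had 0.27, and for BMP4 -0.32 against -0.03 in those without. With AP-1 letters the median was -0.07 (162 windows), with CRE 0.05 (168) and with a CCAAT box -0.08 (1759) against 0.05 without. For BMP4, the GC-rich SMAD letters gave -0.03 (874 windows) with and -0.03 without. TNFa medians were 0.10 in the matched windows of lowest GC and -0.06 in those of highest GC, of 5 ranks.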

How the data were processed

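Per the submitters' processing notes, the mm10 reads went through HOMER 4.11, deepTools 3.5.1, Picard 2.25.1, Bowtie2 2.5.1 and Trimmomatic 0.39, listed there without order. The sources used here give no statement on a transposase offset of the reads. HOMER was run, per the file headers, to call windows of fixed width on each group's 2 libraries together against the background and kept those past an FDR of 0.05 and a log2 fold of 1 by DESeq2, with a p-value adjusted per list. The deposited library values are regularised log2 values (rlog of DESeq2), fitted in each list separately and so not comparable between lists. Tag counts were obtained by inverting the rlog fit of each list. In the 4 lists 99.29% to 100.00% of values came out within 0.1 of a whole number, against 16.5% to 19.1% with the constants moved by 5%. All values were whole in 5449 of the 5595 promoters.

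Counts of each group come from its own list, so a shift of a window by up to 62 bp between lists enters the comparison. Libraries, with 16.5 M to 30.1 M total tags (601068 to 1603008 in shared windows), were put on one scale with TMM factors (trimmed mean of M-values) from the shared windows. Windows with at least 10 counts in 2 libraries and 15 in all were fitted with limma 3.58.1 (R 4.3.3, mean-variance trend) on log2(scaled count + 2) with group as the only term over all 8 libraries, and its two-sided p-values were corrected with the Benjamini-Hochberg method across the 14712 windows. Fold changes on this scale understate the change of low windows. The script was tested on simulated data. Shares were compared by exact permutation (scipy 1.17.1). Gene identity follows the nearest-gene column or the annotated transcript.

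Named promoters are the 8 per direction of smallest p without overlap for each main effect (for the interaction, with or without overlap), 5 per direction for each group against untreated, the 10 highest and 5 lowest levels, the 6 smallest and 6 largest spreads, and the members of the gene lists. Mt2 at 18 bp and further windows of Acyp1, Cant1, Capg, Dlg4, Fxyd5 and Snx10 were added after their values were seen. The promoters and lists were chosen with earlier results of these data known. Alternatives covered scaling, the rlog values themselves, pseudocount, filter, matching distance, voom weights, a replicate block and leaving out libraries. No genome was used, so promoters without an entry in the RefSeq table have no sequence here. Values of a few promoters are not reported here.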

Additional observations from a re-analysis of the deposited data

How the results depend on the processing

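The count of shared promoters past the adjusted p stayed at 0 in all 8 comparisons under the alternatives for scaling, values, pseudocount, filter, matching and weights and without each library in turn (0 to 0), except for the replicate block. The labels give each group the numbers 1 and 2 without saying that a number marks a shared culture or day, and with 2 numbers the samples share only a number. With the replicate block, 9 shared promoters passed for the TNFa main effect (122 of all windows), in windows of Dlg4, Fam129b, Panx3, Mt2, Nfkb2, Acyp1, Nfkbiz and Fxyd5 (adjusted p 0.0192 to 0.0465, limma). The correlation of the replicate differences between groups over promoters ran from -0.02 to 0.73.

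The 40 promoters at an unadjusted p under 0.05 for TNFa became 100 with centred rlog values, 7 with identical starts (fewer windows), 24 with starts within 25 bp (fewer windows), 691 with the replicate block, 12 without untreated 2 and BMP4 2, and 11 to 684 without one library each. For BMP4 the 27 became 50, 1, 12, 386, 133, and 5 to 313. For the rest the cause was not tested. The median fold change of shared promoters for TNFa against untreated was -0.11 with total tags, 0.08 with scaling over non-promoter windows and -0.03 without untreated 2 and BMP4 2. Both against untreated gave -0.10 with total tags and 0.07 with scaling over non-promoter windows, both against BMP4 gave -0.10 and the TNFa main effect -0.11 with total tags. Without one library each the medians ran, in the order TNFa, BMP4 and both against untreated, from -0.03 to 0.12, from -0.07 to 0.01 and from 0.00 to 0.08, for both against TNFa from -0.07 to 0.07, both against BMP4 from 0.02 to 0.10, the TNFa main effect from 0.01 to 0.07, the BMP4 main effect from -0.04 to 0.01 and the interaction from -0.02 to 0.11. The share difference was 0.97 to 1.53 points for TNFa without one library each, and -0.66 to 0.16 for BMP4, where it turned to 0.16 without TNFa 2, 0.02 without BMP4 1 and 0.05 without BMP4 2. Named promoters kept their direction in all 1507 alternatives run on 78 pairs of promoter and comparison. They were picked by small p and, outside the interaction, by groups without overlap. Leaving out a library or changing the scaling could hardly reverse such estimates, so the kept direction is no support for them. Depth limits single windows, with median counts from 30.0 to 82 per promoter.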
